A study of Drosophila melanogaster with 6 samples.

Results

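The transcripts described here are those of the metallothionein genes of Drosophila melanogaster, MtnA, MtnB, MtnC, MtnD and MtnE, of MTF-1, their transcriptional activator, and of the copper transporter genes Ctr1A, Ctr1B and ATP7. These 9 genes, of 17807 in the table of values, were taken by FlyBase symbol, and all 9 had a row. The group was chosen by gene name with the differences between H1 RNAi and control already known, so the values of its genes in that comparison are given as a description and carry no test of their own. In all 3 H1 RNAi libraries MtnA, MtnC, MtnD and MtnE were above every control library, at 2.15 to 2.87 times the control mean, and Ctr1B was 2.23 times the control mean. Ctr1A was lower in every H1 RNAi library, at 0.826 times the control mean, and MtnB, MTF-1 and ATP7 overlapped between the groups.

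RNA was measured in progenitor cells of the adult midgut, the intestinal stem cells (ISC) and enteroblasts (EB), sorted as GFP+ cells from pools of 70 guts, with at most 100000 cells per replicate. The 3 H1 RNAi libraries carry esgts, UAS-GFP and the transgene labelled UAS H1 RNAi 1, a single RNAi construct against the linker histone H1, and the 3 control libraries carry esgts and UAS-GFP alone, so that every library has the temperature-sensitive esg driver and the reporter. The sample characteristics state 4 days of induction at 29 °C, whereas the growth protocol, which names a Dam transgene, states 1 day at 29 °C for flies 3 days old after rearing at 18 °C, and the sources used here do not settle which holds. The labels do not say whether replicates A, B and C came from separate crosses; the p-values therefore rest on a spread between libraries that may be partly technical.

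Metallothioneins are small proteins rich in cysteine that bind copper, zinc and cadmium ions through their thiol groups. In flies, excess metal activates the zinc finger protein MTF-1, which binds metal response elements in the promoters of these genes and raises their transcription. Copper enters cells through transporters of the Ctr1 family and is moved into the secretory pathway or out of the cell by the copper ATPase ATP7. The fly midgut holds a region of copper cells, named for the copper they accumulate, and is a main site of metallothionein induction when metal is fed.

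The deposited unit is TPM, a transcript abundance corrected for gene length and for the total of the library, which allows levels of different genes to be set side by side but does not carry the sequencing depth. Each library had 7767 to 8316 genes at 1 TPM or more. The RNAi target could not be followed, as each of the 23 His1 copies was at 0 in both groups. Fold changes below are differences of mean log2(TPM + 1), H1 RNAi minus control, with the SE of limma, and their median was 0.14 over the 8124 genes tested, those that reached 1 TPM in 3 or more libraries. That median was 0.02 with TMM scaling (trimmed mean of M values) and 0 with quantile normalization, so the fold changes are read against a shift of up to -0.14.

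MtnA (FBgn0002868, chromosome 3R, 9783407 to 9784370, minus strand, dm6), the first metallothionein gene described in flies, had the highest level of the family. It was at 95.02, 72.94 and 77.64 TPM in H1 RNAi libraries A, B and C, against 27.89, 35.76 and 21.95 TPM in control libraries A, B and C. The groups did not overlap, and the lowest H1 RNAi library was about as far above the highest control as that control was above 0. The means were 81.9 ± 11.6 TPM in H1 RNAi and 28.5 ± 6.93 TPM in control (SD, n = 3 each), a log2 fold change of 1.51 ± 0.19. MtnA stood above 83.9% of tested genes in H1 RNAi and above 60.8% of them in control.

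MtnC (FBgn0038790, 3R, 20360308 to 20360634, plus strand) was the most variable of the metallothioneins above 5 TPM. It was at 28.50, 19.07 and 15.12 TPM in H1 RNAi, against 5.09, 10.95 and 11.23 TPM in control. The groups did not overlap, but control A was less than the other controls by a wide margin, and H1 RNAi A was well above the other H1 RNAi libraries. The log2 fold change was 1.14 ± 0.33, and it was 0.81 without control A and 1.34 without H1 RNAi C.

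MtnD and MtnE lie head to head. MtnD (FBgn0053192, 3R, 20534962 to 20535301, plus strand) was at 9.29, 13.82 and 13.48 TPM in H1 RNAi, against 5.48, 6.12 and 5.41 TPM in control, a log2 fold change of 0.97 ± 0.17. MtnE (FBgn0262146, 3R, 20534021 to 20534704, minus strand) was at 7.92, 9.59 and 9.39 TPM in H1 RNAi, against 3.84, 3.54 and 4.14 TPM in control, a log2 fold change of 1.04 ± 0.15. Neither gene overlapped between the groups, the controls of each were tightly grouped, and in both genes H1 RNAi A was the lowest of the H1 RNAi libraries.

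MtnB (FBgn0002869, 3R, 20503102 to 20503746, minus strand), a metallothionein induced by metal feeding, was scarce. It was at 0.75, 2.50 and 0.77 TPM in H1 RNAi, against 0.86, 0.36 and 0.95 TPM in control. Apart from H1 RNAi B, every value was below 1 TPM and the groups overlapped, and MtnB was the only member that did not pass the filter on low values. H1 RNAi B also had the highest level of Vha100-4, a proton pump subunit of copper cells, at 4.28 TPM against 0.48 to 1.52 TPM in the other 5 libraries. The other copper cell markers were not raised in that library. Ptx1 was at 39.28 TPM, its lowest value, and lab was at 7.65 TPM, within the range of the controls. The summed enterocyte markers were highest in H1 RNAi B, at 1609 TPM. The part of these markers in the MtnB value was not tested. MtnF, a further metallothionein gene, was at 0.09 to 0.37 TPM in H1 RNAi and 0.28 to 0.48 TPM in control, and was not tested either.

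**Figure D1:**
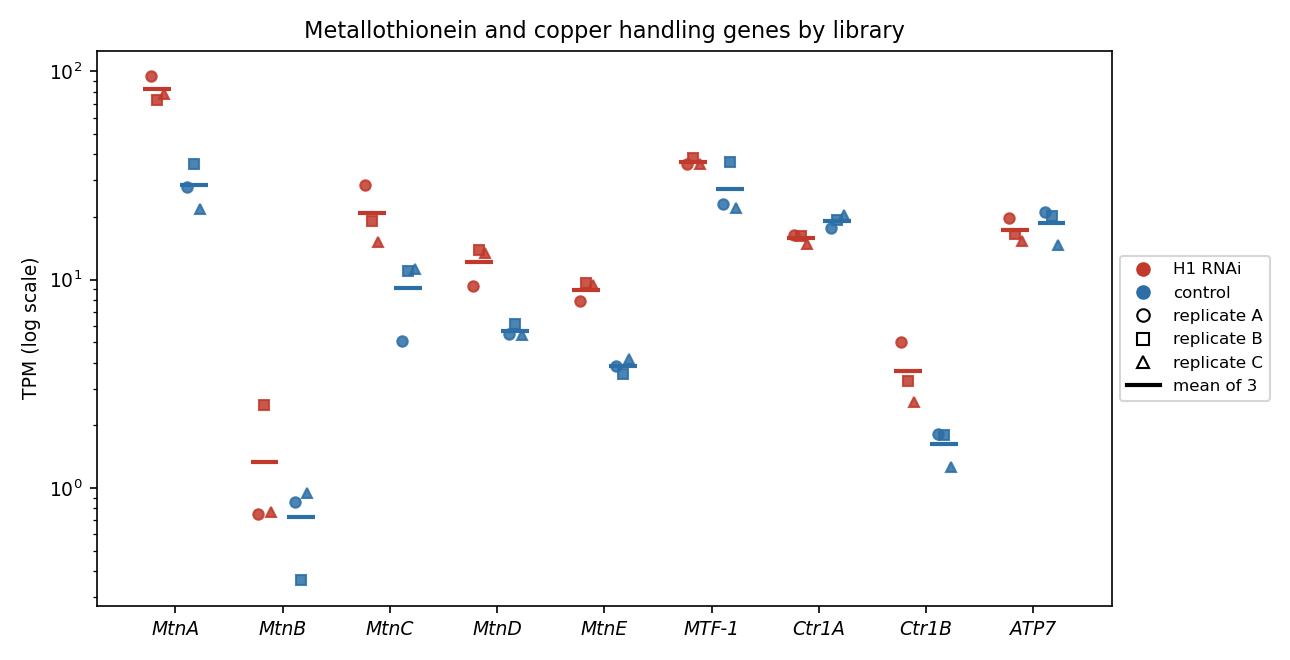
TPM of the 9 genes in each library on a log scale, with H1 RNAi left of control, symbols for the replicate letters and bars for the mean of 3 libraries. MtnA, MtnC, MtnD, MtnE and Ctr1B have every H1 RNAi value above every control value, Ctr1A has every H1 RNAi value below every control value, and MtnB, MTF-1 and ATP7 overlap.

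The tested metallothioneins, MTF-1, Ctr1A, Ctr1B and ATP7 make 8 members, and each of the 8 reached 1 TPM in all 6 libraries, the lowest value being 1.26 TPM, so none of them was tested only because of its level in H1 RNAi. Of the 8, 5 had all H1 RNAi values above all control values, an order held by 24.3% of all tested genes, and 1 had them below, as did 6.45% of all tested genes. In the limma fit over all genes, 3 members (MtnA, MtnD and MtnE) were called higher at an adjusted p of 0.05, where 2.28% of all genes were, and 0 were called lower, where 0.554% of all genes were. The median log2 fold change was 1.09 over the 4 tested metallothioneins and 0.88 over the 8 members, beside 0.14 over all tested genes. Since the genes were picked with this comparison known, nothing is read from these counts.

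The calls depended on single libraries, as did those over all genes. Of all 8124 tested genes 230 were called as reported. Leaving out control B gave 450, and leaving out any other library gave 29 to 82. TMM scaling gave 131 and quantile normalization 144. With no filter on low values 90 of 13713 genes were called. MtnA, MtnD and MtnE were past the threshold together without control B, where MTF-1 joined them, but 0 members were called without H1 RNAi B, H1 RNAi C, control A or control C, and MtnD alone was called without H1 RNAi A. With TMM scaling and with quantile normalization MtnA remained called, with log2 fold changes of 1.38 and 1.37, whereas MtnD (0.86 and 0.77) and MtnE (0.93 and 0.87) were not called. With no filter on low values MtnD alone was lost. None of the 8 tested members changed sign in the alternatives that could be fitted, 14 for each except Ctr1B, which had 13 because it fell under the 5 TPM filter.

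**Figure D2:**
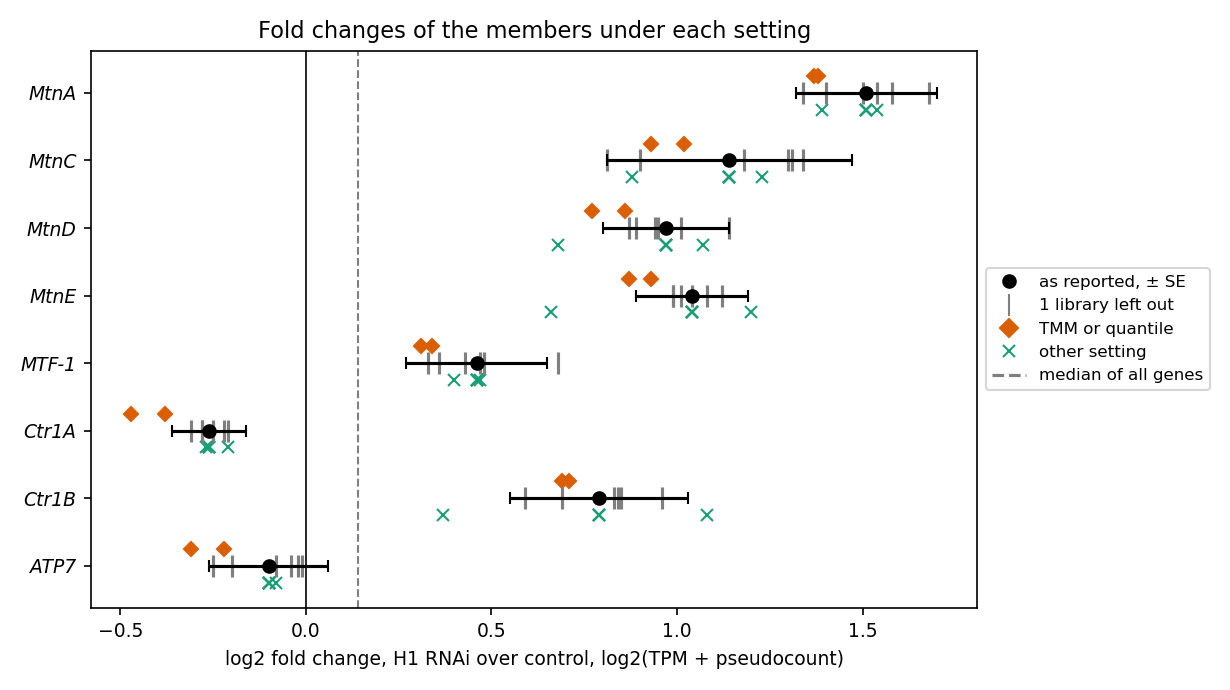
Log2 fold change of the 8 tested members, H1 RNAi over control, as reported with limma's SE (black), with 1 library left out (grey bars), with TMM or quantile scaling (orange) and with the other settings (green); the dashed line is the median of all tested genes, 0.14. The 4 metallothioneins lie between 0.66 and 1.68 in every setting, MTF-1 between 0.31 and 0.68, and Ctr1A and ATP7 below 0.

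Summed over MtnA to MtnE, metallothionein transcripts came to 141, 118 and 116 TPM in H1 RNAi libraries A, B and C, against 43.2, 56.7 and 43.7 TPM in control libraries A, B and C. The mean was 125 ± 14.1 TPM in H1 RNAi and 47.9 ± 7.69 TPM in control (SD, n = 3 each), a ratio of 2.62. MtnA made up 65.2 ± 2.94% of the sum in H1 RNAi and 59.3 ± 7.88% in control, so its share differed by less than the spread of the controls. MtnA accounted for 68.9% of the difference between the summed means and MtnC for 15.3%. The make-up within the family also varied inside a group, since MtnC ranged from 13% to 20.1% of the sum in H1 RNAi and from 11.8% to 25.7% in control. The family took 0.0116% to 0.0141% of all TPM in H1 RNAi and 0.00432% to 0.00567% in control.

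**Figure D3:**
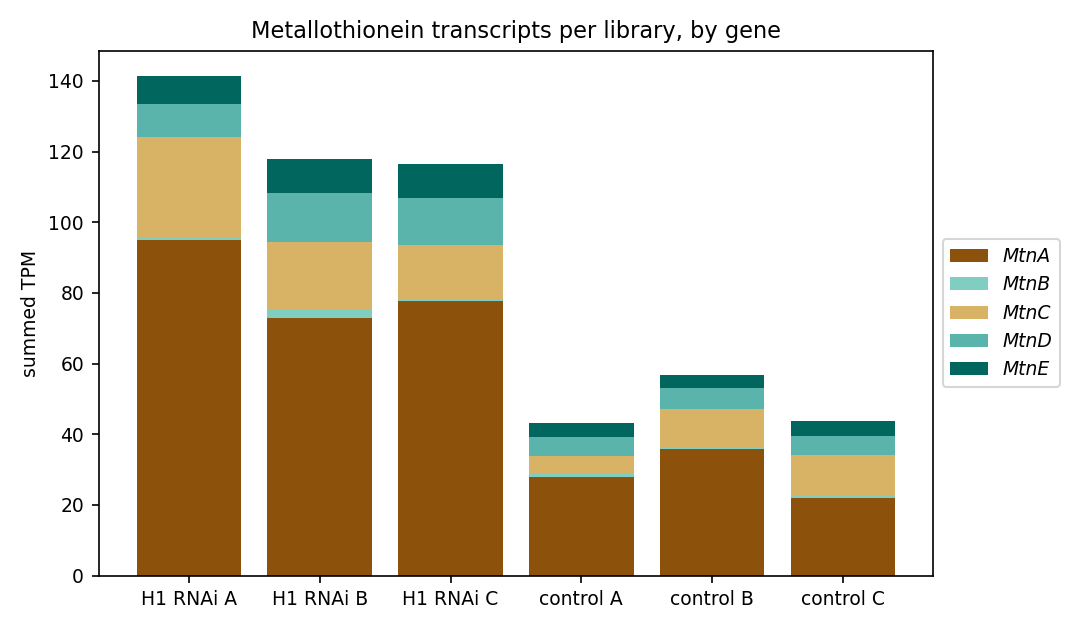
Summed TPM of the 5 metallothionein genes in each library, stacked by gene, with the H1 RNAi libraries left of the control libraries. The H1 RNAi bars stand at 116 to 141 TPM and the control bars at 43.2 to 56.7 TPM, and MtnA is the largest piece of each bar.

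The family is arranged on chromosome arm 3R with MtnA 10.6 Mb away from the others, while MtnC, MtnB, MtnE and MtnD fall within 174994 bp. MtnE and MtnD are transcribed away from each other from starts separated by 257 bp. Of the 28 pairs among the 8 tested members, their profiles over the 6 libraries were the most alike, with a root mean square difference of 0.14 on the log2 scale. Genes outside the members came closer, with Ttc19 at 0.07 to MtnD and CG11125 at 0.09 to MtnE. The measure includes the group difference already known, so it carries no test of a link to the arrangement. The closest MtnA came to another tested member was 0.39, to MtnE. In the stretch from 20000 bp before MtnC to 20000 bp after MtnD lay 13 other genes with a row, of which 11 were not tested and none of those 11 exceeded 0.17 TPM. The 2 tested were Stat92E, the transcription factor of the JAK/STAT pathway, which begins beyond MtnD and ends 21 bp from it, and DPCoAC, a mitochondrial carrier. Stat92E was at 191.97, 163.02 and 157.36 TPM in H1 RNAi, against 171.94, 153.45 and 179.68 TPM in control, with a log2 fold change of 0.02 ± 0.13 (adjusted p = 0.944, limma), and DPCoAC had one of 0.05 ± 0.21 (adjusted p = 0.905, limma). Neither passed the threshold, and both had overlapping groups.

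**Figure D4:**
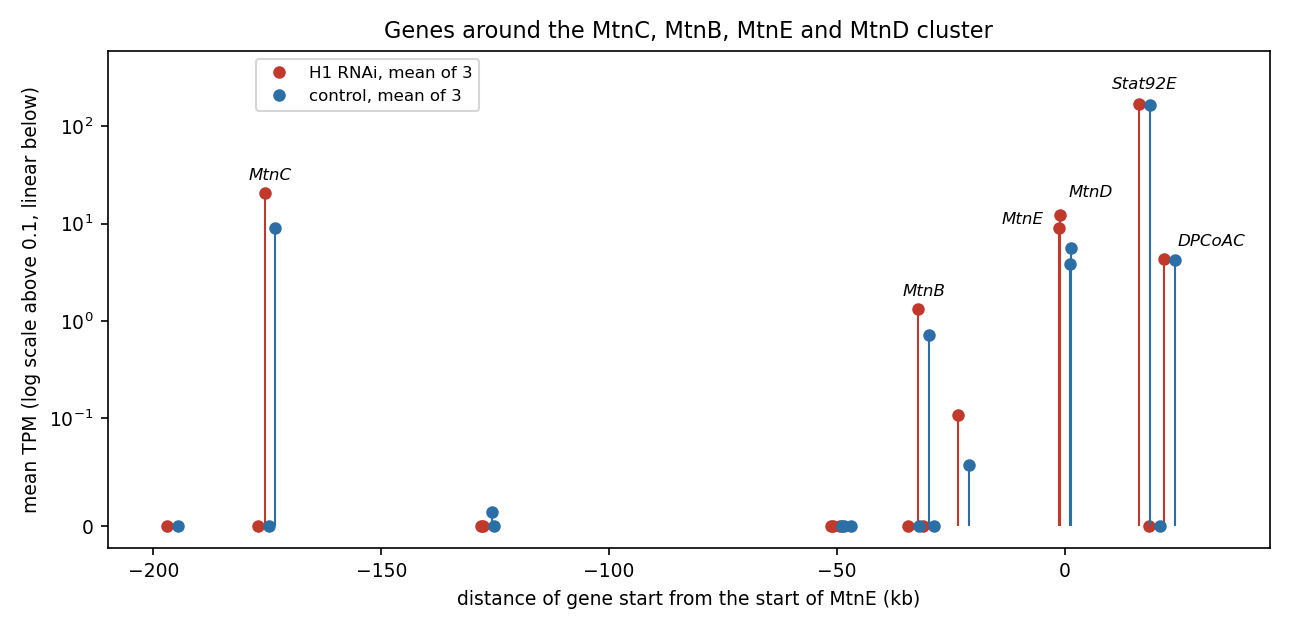
Mean TPM (n = 3) of the 17 genes from 20000 bp before MtnC to 20000 bp after MtnD, by distance of each gene's start from that of MtnE, with H1 RNAi and control drawn slightly left and right of the position. The 4 metallothioneins are higher in H1 RNAi than in control by mean, Stat92E and DPCoAC are at like levels in both groups, and the other genes are at or near 0.

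On both sides of MtnA lie genes that were not called. CG8500 begins 282 bp from the start of MtnA and runs the other way, and it was at 2.22, 1.21 and 1.40 TPM in H1 RNAi, against 0.68, 0.74 and 0.61 TPM in control. Its groups did not overlap and its H1 RNAi mean was 2.38 times the control mean. The log2 fold change of 0.62 ± 0.21, which the pseudocount understates at this level, did not pass (adjusted p = 0.142, limma). CG12947, 352 bp beyond the other end of MtnA, was at 22.2 ± 10.1 TPM in H1 RNAi and 16.3 ± 5.51 TPM in control (SD, n = 3 each), with overlapping groups and an adjusted p of 0.532 (limma).

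MTF-1 (FBgn0040305, 3L, 9430312 to 9439490, plus strand), the activator of the metallothionein genes, was at 35.77, 38.53 and 36.01 TPM in H1 RNAi, against 23.00, 36.55 and 22.01 TPM in control. Control B was as high as the H1 RNAi libraries, so the groups overlapped, and the other controls were well below them. The log2 fold change was 0.46 ± 0.19, and it was 0.68 without control B and 0.33 without control C. Control B also had the highest MtnA and MtnD values of the controls, but the lowest MtnB and MtnE values.

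Ctr1B (FBgn0062412, 3R, 8317612 to 8319205, plus strand) encodes a copper importer which, unlike the metallothioneins, is known in flies as a target that MTF-1 activates when copper is scarce. It was at 5.02, 3.26 and 2.60 TPM in H1 RNAi, against 1.81, 1.80 and 1.26 TPM in control. All H1 RNAi values were above all control values, and the spread was wider in H1 RNAi. The log2 fold change of 0.79 ± 0.24 rested partly on the pseudocount, being 1.08 with 0.1 and 0.37 with 5 added to the TPM. The annotation places lncRNA:CR45215 on the same strand with 185 exonic bases in common, at 1.52 ± 0.554 TPM in H1 RNAi and 0.583 ± 0.254 TPM in control, and reads of the shared bases could belong to either.

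Ctr1A (FBgn0062413, X, 6661647 to 6668258, plus strand), the general copper importer of fly cells, was at 16.39, 16.27 and 14.84 TPM in H1 RNAi, against 17.69, 19.34 and 20.49 TPM in control. The groups did not overlap, and the difference was small, with a log2 fold change of -0.26 ± 0.10 that was -0.47 with quantile normalization. ATP7 (FBgn0030343, X, 11855022 to 11864754, plus strand), the copper exporter, was at 19.85, 16.65 and 15.31 TPM in H1 RNAi, against 21.09, 20.18 and 14.75 TPM in control. Its groups overlapped and its log2 fold change was -0.10 ± 0.16. That value moved with single libraries, being -0.20 without H1 RNAi A, -0.02 without H1 RNAi C, -0.01 without control A, -0.04 without control B and -0.25 without control C, and it was -0.22 with TMM scaling and -0.31 with quantile normalization. Ctr1C, a further Ctr1 gene known from the male germline, was listed at 0 in all 6 libraries.

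Within H1 RNAi, library A had the highest value of MtnA, MtnC, Ctr1B, Ctr1A and ATP7 and the lowest value of MtnB, MtnD, MtnE and MTF-1. The margin was slight for Ctr1A (16.39 TPM against 16.27 in B). It was also slight for MtnB (0.75 TPM against 0.77 in C) and MTF-1 (35.77 TPM against 36.01 in C). The remaining members did not all vary together from library to library. By mean level the order in H1 RNAi was MtnA, MTF-1, MtnC, ATP7, Ctr1A, MtnD, MtnE, Ctr1B and MtnB, and in control it was MtnA, MTF-1, Ctr1A, ATP7, MtnC, MtnD, MtnE, Ctr1B and MtnB. The ranges of neighbours overlapped in H1 RNAi for MtnC and ATP7, ATP7 and Ctr1A, and MtnD and MtnE. In control they overlapped for MtnA and MTF-1, Ctr1A and ATP7, and MtnC and MtnD. MtnA was thus apart from MTF-1 in H1 RNAi but not in control, where MTF-1 averaged 27.2 ± 8.12 TPM (SD, n = 3). Annotated transcripts of the members differ widely in length, from 268 bp for MtnC to 5157 bp for the longest of ATP7. The bearing of transcript length on this order of TPM values was not tested.

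Other genes of metal handling were taken from 5 lists and from MtnF. Of 53 names 52 were matched to a row by symbol and 33 were tested. Of the 33, 0 passed the threshold over all genes in either direction (limma). Beside them, 2.28% of all tested genes were called higher and 0.554% lower. Before adjustment, 11 of the 33 had a p under 0.05 (limma), beside 1935 of all 8124 tested genes. All H1 RNAi values lay above all control values for 10 of the 33 and below for 2, beside 24.3% and 6.45% of all tested genes. Their median log2 fold change was 0.22, close to the 0.14 of all tested genes. Without control B 3 of them passed as higher, and with each other library left out 0 did. Of all 8124 tested genes, 389 were called higher without control B, and 24 to 67 with each other library left out.

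Among copper chaperones and copper-dependent enzymes 9 genes were tested. Phm, the copper enzyme that amidates neuropeptides, was at 104.93, 89.49 and 99.72 TPM in H1 RNAi, against 130.78, 120.17 and 135.56 TPM in control (log2 fold change -0.39 ± 0.11, adjusted p = 0.102, limma). Its groups did not overlap. The summed enteroendocrine markers were also lower in every H1 RNAi library, at 1074 to 1606 TPM in H1 RNAi against 2425 to 3256 TPM in control, and their part in the Phm value was not tested. Ccs, the chaperone that loads copper onto superoxide dismutase, showed 0.38 ± 0.14 on the log2 scale (adjusted p = 0.172, limma) without overlap, and Atox1, which hands copper to ATP7, showed 0.31 ± 0.19 (adjusted p = 0.357, limma) with overlap. The Atox1 difference was 0.47 without control A and 0.13 without control B. Sod1, the copper and zinc superoxide dismutase, was at 289 ± 31.5 TPM in H1 RNAi and 313 ± 51.4 TPM in control (SD, n = 3 each).

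Zinc transporters of the ZnT family move zinc out of the cytosol, and 4 of 7 were tested. ZnT49B was at 17.00, 17.00 and 15.65 TPM in H1 RNAi, against 13.16, 11.66 and 11.31 TPM in control, without overlap (log2 fold change 0.43 ± 0.11, adjusted p = 0.0797, limma). ZnT41F differed by 0.22 ± 0.10 on the log2 scale (adjusted p = 0.248, limma), and ZnT63C, a zinc exporter of the cell surface, by -0.19 ± 0.12 (adjusted p = 0.36, limma), which was -0.30 without H1 RNAi A. ZnT35C, a zinc exporter prominent in Malpighian tubules, did not exceed 0.18 TPM in any library.

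Transporters of the ZIP family bring metal into the cytosol, and 6 of 10 were tested. Zip48C was at 16.34, 18.71 and 18.73 TPM in H1 RNAi, against 10.30, 13.42 and 11.88 TPM in control, without overlap (log2 fold change 0.56 ± 0.13, adjusted p = 0.0693, limma). Without control B it passed, with an adjusted p of 0.0401 (limma). Catsup, a ZIP transporter of the secretory pathway, differed by 0.25 ± 0.12 (log2; adjusted p = 0.263, limma) and Zip88E by 0.33 ± 0.19 (adjusted p = 0.33, limma). Zip42C.1 and Zip42C.2, zinc importers of the midgut epithelium, did not exceed 0.21 TPM in any library.

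Of the iron handling genes 10 of 13 were tested. Irp-1B, named as an iron regulatory protein, was at 40.27, 46.32 and 41.32 TPM in H1 RNAi, against 31.54, 32.30 and 27.23 TPM in control (log2 fold change 0.48 ± 0.11, adjusted p = 0.0716, limma). For fh, the frataxin gene, the log2 difference was 0.47 ± 0.13 (adjusted p = 0.097, limma), and for Nfs1, the cysteine desulfurase of iron-sulfur cluster assembly, it was 0.63 ± 0.21 (adjusted p = 0.135, limma), which passed without control B at 0.0355. The ferritin subunit genes were the most abundant of the list, with Fer1HCH at 647 ± 105 TPM in H1 RNAi and 516 ± 145 TPM in control, and Fer2LCH at 682 ± 67.6 TPM in H1 RNAi and 616 ± 156 TPM in control (SD, n = 3 each), and both overlapped between the groups.

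Of the genes of glutathione synthesis and metal efflux 4 of 6 were tested. Hmt-1, an ABC transporter of the family that detoxifies cadmium in fission yeast, was at 41.55, 51.00 and 46.31 TPM in H1 RNAi, against 29.91, 33.96 and 21.90 TPM in control, without overlap (log2 fold change 0.69 ± 0.17, adjusted p = 0.0813, limma), and passed without control B at 0.0409. Trxr1, a thioredoxin reductase, differed by 0.47 ± 0.14 on the log2 scale (adjusted p = 0.11, limma), without overlap. Gclc, the catalytic subunit of the enzyme that begins glutathione synthesis, differed by 0.28 ± 0.22 (adjusted p = 0.476, limma), and its groups overlapped. The Gclc difference was 0.14 without H1 RNAi C, 0.08 without control A and 0.42 without H1 RNAi A.

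**Figure D5:**
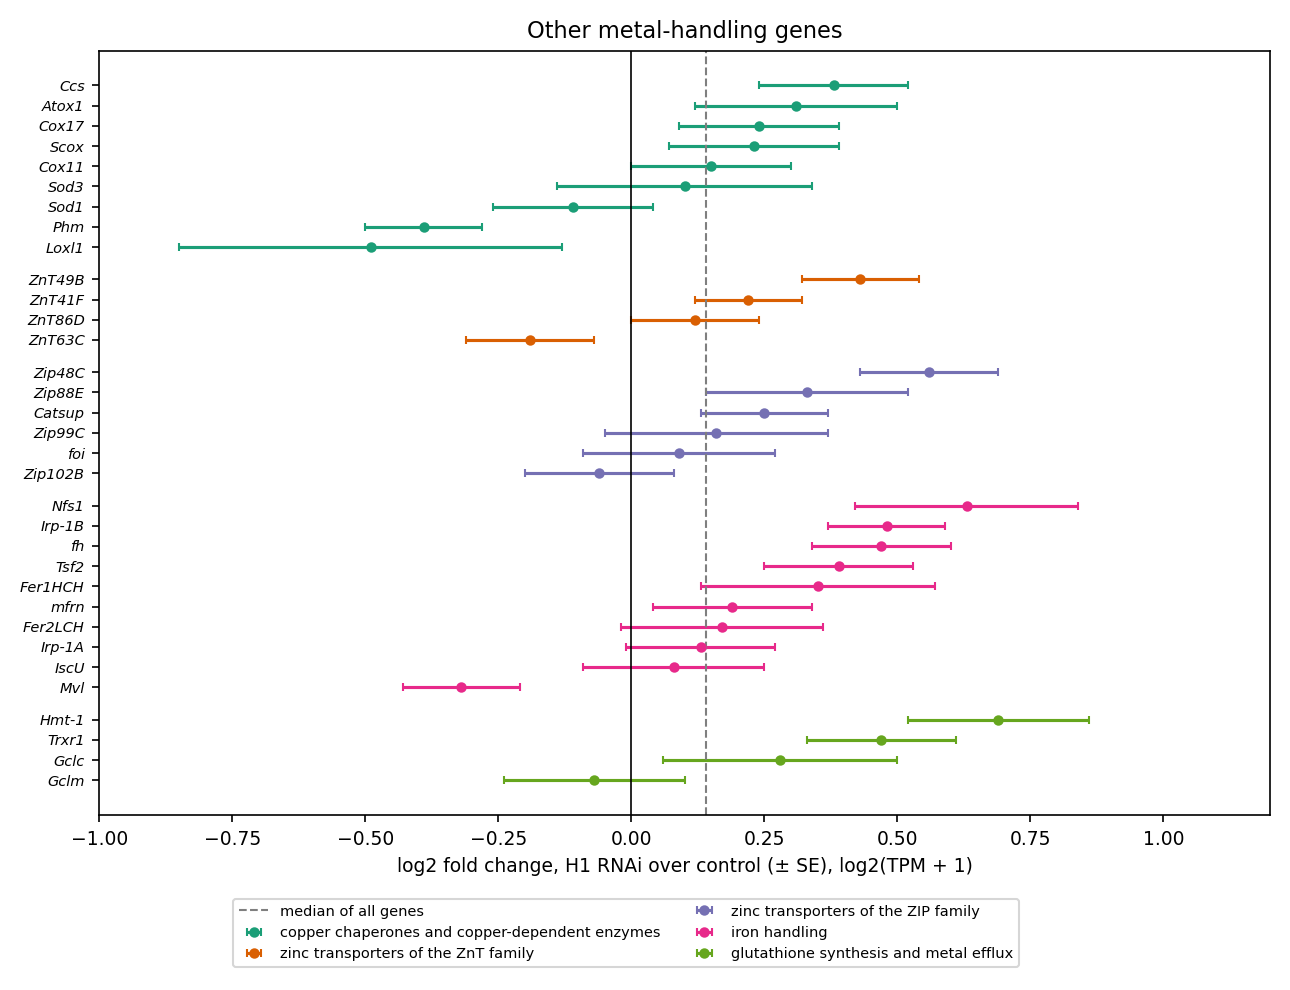
Log2 fold change, H1 RNAi over control, with limma's SE for the 33 tested genes of the 5 other metal-handling lists, ordered within each list; the dashed line is the median of all tested genes, 0.14. Values run from -0.49 to 0.69, and none passed the threshold over all genes.

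The genes whose profiles were closest to each metallothionein were found by the root mean square difference of log2(TPM + 1) values, centred on each gene's mean over the 6 libraries. For MtnA these were CG32280, CG33655 and dachs, an atypical myosin of growth control, each at 0.16, where the median over tested genes was 0.74. CG32280 was at 24.69, 22.34 and 27.47 TPM in H1 RNAi, against 9.63, 10.56 and 7 TPM in control. For MtnC they were snoRNA:Or-CD12 at 0.22 and CG6654 and CG1304, both at 0.27. For MtnD they were Ttc19, a gene of mitochondrial complex III assembly, at 0.07, and the centriole gene ana1 and asRNA:CR45868, both at 0.11. For MtnE they were CG11125 and CG18789, both at 0.09, and the esterase gene alpha-Est5 at 0.10. These likenesses carry no test, since they follow the same difference between groups that was known when the genes were chosen.

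The cell type was checked with marker genes. Of 11 progenitor markers 8 were matched to a row by symbol, all 8 were tested and none was called. Their summed level was 2139 to 2315 TPM in H1 RNAi and 2020 to 2390 TPM in control. Of the 8, mira was higher in every H1 RNAi library than in any control. It was at 201.66, 131.00 and 169.09 TPM in H1 RNAi, against 124.91, 92.93 and 106.37 TPM in control (log2 fold change 0.61 ± 0.19, adjusted p = 0.118, limma). The rest of the 8 overlapped between the groups. The genes esg, Dl and hdc are not analysed here. The 3 copper cell markers lab, Ptx1 and Vha100-4 summed to 50.4 to 57.4 TPM in H1 RNAi and 48.5 to 57.8 TPM in control, with overlap and no call among the 2 tested. The 9 enterocyte markers summed to 762 to 1609 TPM in H1 RNAi and 561 to 1120 TPM in control, with overlap and no call among the 8 tested. Of these 9, the protease genes Jon65Aii and Jon65Ai were higher in every H1 RNAi library than in any control. All the others overlapped between the groups. Among those tested, their log2 fold changes ran from -0.27 (nub) to 1.16 (betaTry), with Myo31DF at 0.12 and mex1 at 0.09. Jon65Aii was at 48.23, 10.79 and 33.78 TPM in H1 RNAi, against 2.62, 1.76 and 7.06 TPM in control (log2 fold change 2.66 ± 0.61, adjusted p = 0.0716, limma), and Jon65Ai averaged 5.29 ± 0.74 TPM in H1 RNAi and 2.84 ± 1.47 TPM in control (SD, n = 3 each; adjusted p = 0.2, limma). The part of enterocyte markers in the metallothionein values was not tested. Of the 7 enteroendocrine markers 4 were called lower (limma), where 0.554% of all tested genes were, with the sums given beside Phm. Of the rest, pros was also below every control in each H1 RNAi library (adjusted p = 0.0787, limma), whereas AstC and AstA overlapped. The part of enteroendocrine markers in the metallothionein values was not tested. In such bulk samples fewer cells of a type and less RNA per cell cannot be told apart.

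Markers of tissues outside the gut epithelium were close to 0. The 7 visceral muscle markers summed to 2.76 to 5.78 TPM in H1 RNAi and 2.75 to 4.80 TPM in control, with Mhc, Mlc1, Act57B, up and Tm2 below 1 TPM in every library. The 5 hemocyte markers summed to 1.11 to 1.49 TPM in H1 RNAi and 1.10 to 1.60 TPM in control. The 5 Malpighian tubule markers summed to 0.54 to 1.53 TPM in H1 RNAi and 0.45 to 3.19 TPM in control. The 5 fat body markers summed to 1.70 to 2.66 TPM in H1 RNAi and 2.83 to 3.51 TPM in control, lower in every H1 RNAi library, with Lsp2, Fbp2 and Lsp1beta below 1 TPM in every library. The lower sum was mainly that of apolpp, which averaged 0.837 TPM in H1 RNAi and 2.01 TPM in control. Fbp1 went the other way by mean, at 1.15 and 0.803 TPM, with overlap. The part of fat body markers in the metallothionein values was not tested.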

How the data were processed

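RNA of 3 H1 RNAi and 3 control libraries was prepared with a stranded mRNA kit, per the labels. The authors deposited TPM values per gene and library, rounded to 2 decimals. The submitters' processing notes name bcl2fastq and dm6; not given in the sources used here are the aligner, the counting tool, its annotation, its use of strand and its treatment of reads matching several family members. Columns were matched to libraries by their descriptions. Symbols came from a table that paired 17710 of 17807 identifiers, and coordinates from Ensembl release 115 (BDGP6.54, dm6 coordinates, 1-based).

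The 8124 genes reaching 1 TPM in 3 or more libraries were fitted on log2(TPM + 1) with limma 3.58.1 in R 4.3.3, with mean trend and robust moderation and Benjamini-Hochberg adjustment over all tested genes at 0.05. A pseudocount of 1 understates the change of genes near 1 TPM. The procedure was tested on simulated data. Tables were made with pandas 2.3.3 and numpy 2.4.6 under Python 3.11.15, and figures with matplotlib 3.10.9. The members and the lists were chosen with earlier results of these data known. Genes named in the text are the members, Ctr1C and MtnF, per list the 3 tested genes of lowest adjusted p, the 3 genes most like each tested metallothionein and the genes beside members or in the stretch around MtnC to MtnD. Sod1, the ferritin genes, ZnT35C and the Zip42C genes were added after their values were seen. So were the marker genes Vha100-4, lab, Ptx1, Jon65Aii, Jon65Ai, Myo31DF, mex1, nub, betaTry, apolpp, Fbp1, mira, pros, AstC and AstA. Other marker genes are named by list, without values of their own.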

Additional observations from a re-analysis of the deposited data

How the results depend on the processing

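The fold changes of the 8 tested members kept their direction in each alternative that could be fitted, 14 for each but 13 for Ctr1B, which fell under the 5 TPM filter, and that of the summed metallothioneins (log2 ratio of means 1.39) stayed between 1.22 and 1.53 over scaling and leaving out libraries. The count of all genes called, 230 as reported (185 higher, 45 lower), was 90 with no filter on low values (75 higher, 15 lower), 131 with TMM scaling (87 higher, 44 lower), 144 with quantile normalization (85 higher, 59 lower), 142 with the replicate block, and 29 to 450 on leaving out libraries, lowest without H1 RNAi B and highest without control B. Members called, 3 as reported, were 1 with TMM scaling, 1 with quantile normalization, 1 with the replicate block (MtnA in each) and 0 to 4 on leaving out libraries; the causes were not tested. Other metal-handling genes called were 0 in each alternative except 3 without control B, so 0 to 3 on leaving out libraries. A pseudocount of 5 gave MtnE a log2 fold change of 0.66, against 1.04 as reported. Same-letter libraries deviated together with correlations of 0.40 (A), 0.136 (B) and 0.0931 (C) over tested genes, which does not establish a pairing, and not every library correlated best with its own letter. Depth is unknown, so counting error, largest for the short and scarce MtnB, could not be given. The motif count in promoters was not run, since no promoter sequence was used here.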

Other observations

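Genes that overlap the larger members are given here as values. MTF-1 shares 644 exonic bases with Bet3 on the other strand, which was at 17.2 ± 2.31 TPM in H1 RNAi and 14.5 ± 2.89 TPM in control (SD, n = 3 each; log2 fold change 0.24, adjusted p = 0.416, limma). MTF-1 also shares 251 exonic bases with CG42526 on the other strand, which was at 0.96, 0.97 and 1.04 TPM in H1 RNAi, against 0.34, 0.63 and 0.23 TPM in control, and was not tested. ATP7 shares 104 exonic bases with Nrd1 on the other strand, which was at 22.32, 21.01 and 17.94 TPM in H1 RNAi, against 11.72, 14.17 and 9.84 TPM in control, without overlap (log2 fold change 0.74 ± 0.15, adjusted p = 0.0577, limma). The kit was stranded, but the sources used here do not state whether the counting used the strand. Reads of these shared bases could be told apart only if it did. On its own strand MTF-1 shares 467 exonic bases with asRNA:CR45872, which was listed at 0 TPM in every library.

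Coq2, 1068 bp from Ctr1B, was at 9.53 ± 1.77 TPM in H1 RNAi and 6.29 ± 1.08 TPM in control (SD, n = 3 each; adjusted p = 0.148, limma). CG1847, 4415 bp beyond ATP7, was at 8.08 ± 0.965 TPM in H1 RNAi and 3.96 ± 0.722 TPM in control (SD, n = 3 each), with a log2 fold change of 0.88 ± 0.17 that lay just inside the threshold over all genes (limma).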
